A study of Homo sapiens with 35 samples.

Results

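BDH1, SLC4A4 and C12orf75 are 3 human genes whose RNA was lower in DU145 cells depleted of either of 2 chromatin proteins than in control cells. They were picked by name from an RNA-seq table of 28503 gene entries because both knockdowns lowered them, so their falls against control are described here and not tested. DU145 is an established prostate cancer line derived from a brain metastasis. All 6 RNA libraries came from this line, grown in high-glucose medium with serum and expressing a short hairpin RNA: shLuciferase (control, 2 libraries), shZMYND8 (2 libraries) or shJARID1D (2 libraries). ZMYND8 (also RACK7) is a reader of histone marks, and JARID1D, whose gene is KDM5D, is a histone H3K4 demethylase encoded on the Y chromosome. The series title links ZMYND8 to restraint of metastasis-linked genes. The labels give neither the number of hairpins per target nor separate cultures behind the replicates, so a p-value here reflects how far these libraries scatter, which could be technical scatter. Both knockdowns were compared with the same 2 shLuciferase libraries, so a change seen in both is not 2 independent results. The other 29 of the 35 samples in the series were not analysed here.

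The 3 genes belong to different parts of cell physiology. BDH1 encodes the mitochondrial D-beta-hydroxybutyrate dehydrogenase, which interconverts the ketone bodies beta-hydroxybutyrate and acetoacetate. A cell that burns ketone bodies uses BDH1, then OXCT1 (SCOT) to load acetoacetate with coenzyme A, and then ACAT1 to split it into acetyl-CoA. SLC4A4 encodes NBCe1, a membrane protein that carries sodium together with bicarbonate and so takes part in the control of intracellular pH. In many epithelia it works with carbonic anhydrases and sodium-proton exchangers. C12orf75 encodes a small protein of poorly known function, also called OCC-1 (overexpressed in colon carcinoma 1).

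Sequence upstream of a start site is shown because these genes moved together and the choice of genes used no sequence. The choice of start did use sequence, since the most CpG-rich annotated start of each gene was taken. Each run is the 250 bases before an annotated start, 5′ to 3′ on the gene's strand, from RefSeq (GRCh38.p14, whereas the reads were handled on an older build), with capitals marking matches on either strand to the GC box GGGCGG or the CCAAT box.
BDH1, chr3:197555969-197556218, minus strand, start 2 of 2: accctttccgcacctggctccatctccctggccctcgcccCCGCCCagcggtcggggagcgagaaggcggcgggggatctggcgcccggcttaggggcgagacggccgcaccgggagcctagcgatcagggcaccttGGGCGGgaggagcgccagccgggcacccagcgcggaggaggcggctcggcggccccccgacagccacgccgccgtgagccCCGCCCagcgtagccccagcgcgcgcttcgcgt
SLC4A4, chr4:71186515-71186764, plus strand, start 2 of 5: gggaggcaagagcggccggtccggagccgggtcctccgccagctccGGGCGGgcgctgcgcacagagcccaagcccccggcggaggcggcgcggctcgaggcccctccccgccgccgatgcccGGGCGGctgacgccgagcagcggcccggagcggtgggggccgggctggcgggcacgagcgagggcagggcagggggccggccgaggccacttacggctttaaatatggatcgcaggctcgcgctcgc
C12orf75, chr12:105330441-105330690, plus strand, the only start listed: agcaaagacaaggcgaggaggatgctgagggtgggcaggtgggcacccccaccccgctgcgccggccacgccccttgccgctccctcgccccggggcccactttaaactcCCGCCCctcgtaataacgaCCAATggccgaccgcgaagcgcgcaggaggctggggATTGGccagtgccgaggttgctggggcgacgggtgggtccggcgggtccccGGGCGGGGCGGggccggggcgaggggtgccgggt

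These 3 stretches were rich in G and C, at 77.6% for BDH1, 78.8% for SLC4A4 and 74.0% for C12orf75, against a median of 58% over 35116 RefSeq windows of the same length. They held 34, 36 and 27 CpG dinucleotides, in that order, against a median of 11. For BDH1 and SLC4A4 the start was picked for its CpG count, so these contrasts follow in part from the pick. C12orf75 had only 1 start, so there was no pick. BDH1 had 3 GC boxes and SLC4A4 had 2. C12orf75 had 3 GC boxes, of which a pair overlapped, and 2 CCAAT boxes. Such matches are common, since 42.6% of all windows held a GC box and 32.0% a CCAAT box. The other annotated starts of the same genes were mixed. The window of BDH1 start 1 was 45.6% GC with 1 CpG, and the windows of SLC4A4 starts 1, 4 and 5 were 39.2%, 45.2% and 48.4% GC with 0, 3 and 2 CpG. Start 3 of SLC4A4 was 75.2% GC with 33 CpG and 1 GC box. None of the 8 windows held a TATA box (TATAAA, in 10.7% of all windows) or the MYC-type E-box (CACGTG, 6.34%), and SLC4A4 start 4 alone held the AP-1 motif TGANTCA (6.57%). The table counts fragments per gene, so which of these starts the cells used was not measured.

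The deposited values were fragment counts scaled between libraries, and each library rested on 20.7 to 27.4 M fragments. Levels below are in CPM, a gene's share of its library scaled to a common total, not corrected for gene length, so they compare libraries and not genes. The knockdowns showed in their targets. ZMYND8 stood at 64.7 and 52.7 CPM in shLuciferase, 35.5 and 33.2 CPM in shZMYND8, and 69.7 and 63.7 CPM in shJARID1D. Its log2 fold change in shZMYND8 was −0.77 ± 0.13 (SE; edgeR adjusted p = 0.00491, and 0.0581 without shZMYND8 replicate 2). KDM5D stood at 58.1 and 61.0 CPM in shLuciferase, 55.5 and 59.9 CPM in shZMYND8, and 19.6 and 17.9 CPM in shJARID1D, a log2 fold change of −1.67 ± 0.12 in the last (edgeR adjusted p = 0.000831). Epithelial markers (KRT8, KRT18, KRT19, EPCAM, CDH1) were all expressed and summed to 1321 to 1862 CPM in shLuciferase, 1100 to 1222 CPM in shZMYND8 and 963 to 1131 CPM in shJARID1D. This sum did not overlap between controls and knockdowns, as in the 3 genes, and its part in their falls was not tested. Over all genes, edgeR called 7.34% lower and 8.89% higher in shZMYND8, and 2.79% lower in shJARID1D. Of these 5 markers, 2 were lower and 1 was higher in shZMYND8, and 2 were lower in shJARID1D. The shJARID1D count was 3 without shLuciferase replicate 1 and 0 without any 1 of the other 5 libraries, with no filter or with only the groups compared, and the higher gene in shZMYND8 was lost without either shZMYND8 library. Stromal markers summed to at most 5.66 CPM with DCN at 0 and COL1A1 higher in shZMYND8, endothelial markers to at most 0.751 CPM, and the leukocyte sum of 34.8 to 55.5 CPM was nearly all CD68, with CD3E at 0. Between libraries of bulk RNA, fewer cells expressing a gene and less RNA per cell cannot be told apart.

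SLC4A4 was lower by more than 1 log2 unit in both knockdowns. Its level was 79.5 and 65.1 CPM in the shLuciferase libraries, 29.4 and 35.2 CPM in shZMYND8, and 35.1 and 33.3 CPM in shJARID1D. All 4 knockdown libraries lay below both controls, and the lower control was 1.85 times the highest knockdown library. The group means were 72.3 ± 10.2, 32.3 ± 4.11 and 34.2 ± 1.32 CPM (SD, n = 2 each), so the knockdown cells held 44.7% and 47.3% of the control level. On the log2 scale the fall was −1.16 ± 0.14 (SE) in shZMYND8 and −1.08 ± 0.14 in shJARID1D, or 2.24-fold and 2.11-fold. These values rest on 669 to 1784 fragments per library. Both knockdowns took the transporter's RNA to less than 50% of control in these means.

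C12orf75 was lower by a like amount, from a control level that barely varied. It stood at 77.1 and 79.8 CPM in shLuciferase, 27.3 and 29.7 CPM in shZMYND8, and 39.9 and 34.5 CPM in shJARID1D. Again no knockdown library reached a control, the lower control being 1.93 times the highest knockdown library, and both shZMYND8 libraries lay below both shJARID1D libraries. The means were 78.4 ± 1.94, 28.5 ± 1.68 and 37.2 ± 3.84 CPM (SD, n = 2 each), or 36.4% of control in shZMYND8 and 47.5% in shJARID1D. The log2 fold change was −1.46 ± 0.13 (SE) in shZMYND8, 2.75-fold down, and −1.08 ± 0.12 in shJARID1D, 2.11-fold down. The library counts ran from 692 to 1859 fragments.

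BDH1 was the least deeply counted of the 3 genes, with 39 to 182 fragments per library, and its controls differed most. It stood at 4.56 and 7.80 CPM in shLuciferase, 2.74 and 2.49 CPM in shZMYND8, and 1.67 and 2.83 CPM in shJARID1D. The controls differed 1.71-fold, on 102 and 182 fragments (exact Poisson 95% intervals 83.2 to 124 and 157 to 210, for counting error only), and the shJARID1D libraries 1.69-fold. Even so, the lower control was 1.61 times the highest knockdown library, and the groups did not overlap. The means were 6.18 ± 2.29, 2.62 ± 0.178 and 2.25 ± 0.819 CPM (SD, n = 2 each), which put BDH1 at 42.4% of control in shZMYND8 and 36.4% in shJARID1D. The log2 fold change was −1.24 ± 0.33 (SE) in shZMYND8, 2.36-fold down, and −1.45 ± 0.33 in shJARID1D, 2.74-fold down. The size of this fall moved with single libraries. It was −0.80 in shZMYND8 and −1.02 in shJARID1D without shLuciferase replicate 2, −1.58 and −1.79 without shLuciferase replicate 1, −1.12 in shJARID1D without shJARID1D replicate 1 and −1.88 without shJARID1D replicate 2.

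**Figure D1:**
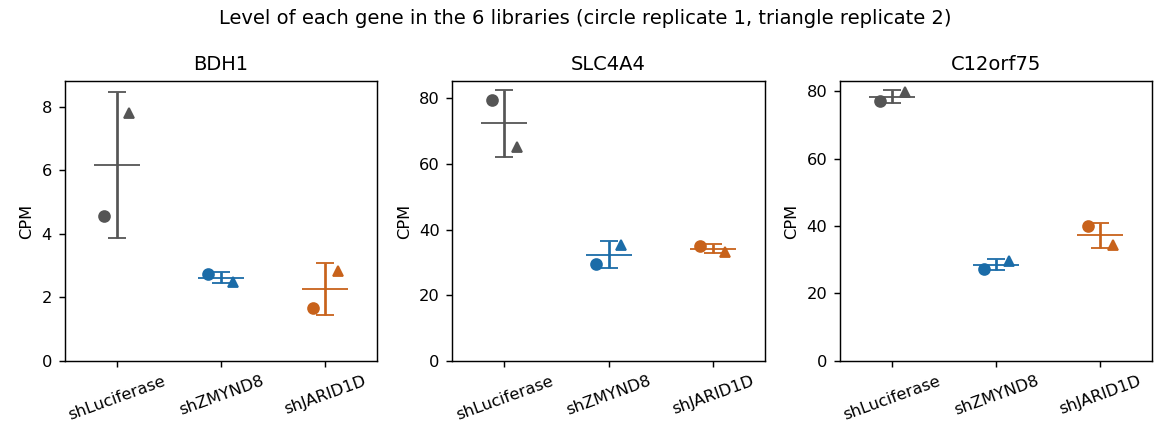
Level of BDH1, SLC4A4 and C12orf75 in CPM (vertical axis, from 0, a scale per gene) in each of the 6 libraries; circles are replicate 1, triangles replicate 2, and lines the group mean with its SD (n = 2). Every knockdown library lies below both controls, and the BDH1 controls are the furthest apart, at 4.56 and 7.80 CPM.

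The 3 genes were chosen for these falls, and the table as a whole gives their background. Of 15867 genes tested with edgeR, 1164 (7.34%) were lower in shZMYND8 and 443 (2.79%) in shJARID1D at an adjusted p under 0.05 (in either direction 16.2% and 5.75%), and 111 (0.7%) were lower in both, these 3 among them. Both comparisons share their control libraries, so being lower in both is not 2 independent results. The membership of these 3 genes follows from how they were chosen, and it moved with single libraries. As each of 6 libraries was left out, the BDH1 call was lost 5 times in shJARID1D and 3 times in shZMYND8. The shJARID1D calls of SLC4A4 and C12orf75 were lost without either shJARID1D library, and their shZMYND8 calls were not lost. A fall of over 1 log2 unit in both knockdowns was seen in 37 genes (0.233%). Having all 4 knockdown libraries below both controls was common, at 1885 genes (11.9%), and so was having both libraries of 1 knockdown below both controls, at 27.8% for shZMYND8 and 24.9% for shJARID1D. The median log2 fold change over all tested genes was −0.01 in shZMYND8 and 0.00 in shJARID1D. Ranked by the smaller of both falls among the 107 of these genes that averaged 5 CPM or more, SLC4A4 and C12orf75 stood at the top, both at −1.08. Their order was within the error and turned without shLuciferase replicate 1 (−0.93 for SLC4A4 and −1.10 for C12orf75), among other alternatives. The genes just outside were ALDH7A1, an aldehyde dehydrogenase of lysine breakdown, at −1.02, and ESRP2, an epithelial splicing regulator, at −1.01. BDH1 averaged 3.68 CPM and so was not ranked there. With no limit on level it was the third of 111, after a pair of unnamed transcript entries.

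The direct comparison of the knockdowns was not used to choose the genes, although it draws on the same libraries. It asks whether either knockdown lowered a gene more than the other. Genes chosen as low in both knockdowns may tend to differ little between them, so a missing call here is not read as equal falls. Across all genes it made 2490 calls with edgeR (15.7%), 1376 higher (8.67%) and 1114 lower (7.02%) in shZMYND8, and none of the 3 genes was among them. For C12orf75, shZMYND8 minus shJARID1D was −0.38 ± 0.12 on the log2 scale (SE; 95% interval −0.66 to −0.10), with an unadjusted p of 0.0120 and an edgeR adjusted p of 0.0646, which misses the threshold. Both shZMYND8 libraries were below both shJARID1D libraries, as in 32.7% of all genes. It passed under 5 of 17 alternatives, among them with library totals in place of TMM (edgeR adjusted p = 0.0482), with only the 2 knockdown groups in the fit (0.0300) and without either shLuciferase library (0.0284 and 0.0289), and it reached 0.394 when a knockdown library was left out. For SLC4A4 the difference was −0.08 ± 0.14 (SE; 95% interval −0.40 to 0.24; edgeR adjusted p = 0.737). For BDH1 it was 0.22 ± 0.35 (SE; 95% interval −0.55 to 0.99; edgeR adjusted p = 0.710). The interval for BDH1 is wide enough to hold a difference of almost 1 log2 unit, so its fall may be unequal between the knockdowns by an amount these libraries do not resolve.

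Among the other genes of ketone body metabolism, OXCT1, the enzyme downstream of BDH1 in ketone body use, was lower in both knockdowns. Of 8 such genes 6 were tested, and in each knockdown 1 was lower, none was higher and 5 did not pass. The median log2 fold change was −0.16 in shZMYND8 and −0.14 in shJARID1D. Over all genes 7.34% were lower in shZMYND8 and 2.79% in shJARID1D, so 1 of 6 is not read as a result about the set. OXCT1 stood at 148.0 and 149.8 CPM in shLuciferase, 110.5 and 117.4 CPM in shZMYND8, and 110.8 and 107.0 CPM in shJARID1D. No knockdown library reached a control. The log2 fold change was −0.39 ± 0.11 (SE; edgeR adjusted p = 0.0395) in shZMYND8 and −0.45 ± 0.11 (0.0439) in shJARID1D. These calls stood near the threshold and were lost without any 1 of the 4 knockdown libraries, with edgeR adjusted p from 0.0876 to 0.261 in shZMYND8 and from 0.0939 to 0.249 in shJARID1D. Both OXCT1 calls were also lost with upper quartile factors, with library totals only and with only the groups compared. The shJARID1D call was lost with no filter too. ACAT1, the thiolase of the last step, had values of −0.23 (edgeR adjusted p = 0.171) and −0.27 (0.162), which did not pass.

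BDH2, which shares the BDH name but is a cytosolic enzyme of a distinct branch of the dehydrogenase family, did not pass in either knockdown. It stood at 6.30 and 2.91 CPM in shLuciferase, 5.83 and 4.85 CPM in shZMYND8, and 9.43 and 6.43 CPM in shJARID1D. Both shJARID1D libraries were above both controls, while the shZMYND8 libraries lay between the controls. The log2 fold change was 0.21 ± 0.34 (SE; edgeR adjusted p = 0.720) and 0.78 ± 0.33 (0.186). Without shLuciferase replicate 2 the first was −0.243 and without replicate 1 it was 0.87, and without shLuciferase replicate 1 the second was 1.441 with an edgeR adjusted p of 0.0134. Among 7 dehydrogenases of the SDR9C branch to which BDH1 belongs, 4 were tested and none passed in either knockdown (median log2 fold changes 0.69 and 0.00). In both, 0 of these 4 had an unadjusted p under 0.05 with edgeR, and DESeq2 called 0. All 4 were thinly counted, at 6 to 59 fragments per library. Their log2 fold changes ran from 0.23 to 1.07 in shZMYND8 (SE 0.33 to 0.57) and from −0.35 to 1.09 in shJARID1D (SE 0.34 to 0.60). Such errors are too wide to show that these relatives were unchanged.

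Ketone bodies, lactate and pyruvate cross the plasma membrane through monocarboxylate transporters. Of 9 genes for such transporters and their chaperones, 6 were tested. In shZMYND8 2 were higher and none lower, and in shJARID1D 1 was higher and 2 lower (medians −0.27 and 0.38). Of all genes, 8.89% were higher and 7.34% lower in shZMYND8, and 2.96% higher and 2.79% lower in shJARID1D. SLC16A3 (MCT4), known as a lactate exporter, stood at 153 and 212 CPM in shLuciferase, 326 and 329 CPM in shZMYND8, and 273 and 295 CPM in shJARID1D, above control in all 4 knockdown libraries. It rose by 0.84 ± 0.15 (SE; edgeR adjusted p = 0.00630) in shZMYND8 and by 0.64 ± 0.15 (0.0436) in shJARID1D. The first call was lost without shZMYND8 replicate 1 (0.0522), and the second without any 1 library other than shLuciferase replicate 2 (up to 0.204). SLC16A6 (MCT7), known as an exporter of beta-hydroxybutyrate, stood at 0.809 and 1.07 CPM in shLuciferase, 3.04 and 3.39 CPM in shZMYND8, and 2.01 and 2.14 CPM in shJARID1D. It rose by 1.77 ± 0.30 in shZMYND8 (SE; edgeR adjusted p = 0.00431), and in shJARID1D its 1.14 ± 0.31 did not pass (0.0593). The chaperones BSG (basigin) and EMB (embigin) were lower in shJARID1D, with log2 fold changes of −0.62 ± 0.15 (SE; edgeR adjusted p = 0.0482) and −0.72 ± 0.13 (0.0191). The BSG call was lost without any 1 library other than shLuciferase replicate 1 (up to 0.244), and the EMB call without either shJARID1D library (0.127 and 0.142). SLC16A1 (MCT1), the most widely expressed carrier, had −0.35 ± 0.11 in shZMYND8 (SE; edgeR adjusted p = 0.0601) and 0.12 ± 0.11 in shJARID1D (0.579). Neither passed, the first narrowly. Its direct difference, shZMYND8 minus shJARID1D, was −0.47 ± 0.11 (SE; edgeR adjusted p = 0.0228), which passed.

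**Figure D2:**
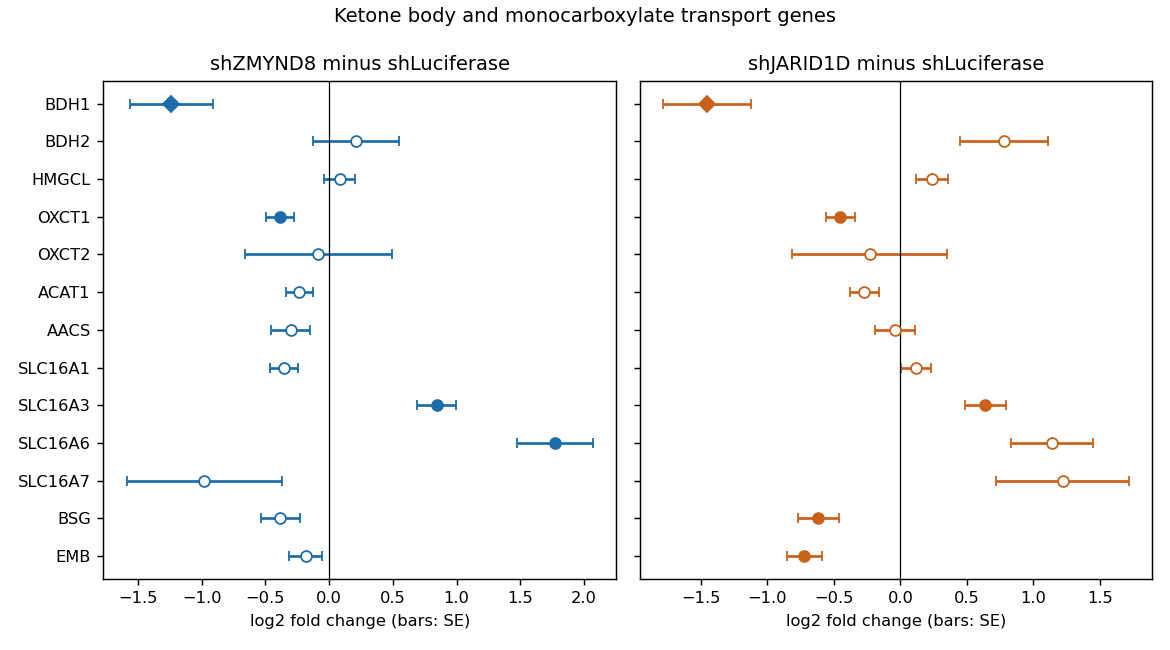
Log2 fold change against shLuciferase (horizontal axis, bars SE) of BDH1 (diamond, chosen for its fall), other ketone body genes and monocarboxylate carriers, for shZMYND8 (left) and shJARID1D (right); filled circles passed an edgeR adjusted p under 0.05. BDH1 lies furthest left in both, OXCT1 is lower in both, and SLC16A3 is higher in both.

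SLC4A4 was not the lone bicarbonate transporter of its family with a lower level. Of 9 other SLC4 genes 6 were tested: 2 were lower in shZMYND8 and 3 in shJARID1D, and none was higher in either. Over all genes 7.34% were lower in shZMYND8 and 2.79% in shJARID1D. The median log2 fold changes of the 6 were −0.49 and −0.46. SLC4A8, a sodium-driven chloride-bicarbonate exchanger, stood at 35.0 and 38.6 CPM in shLuciferase, 17.4 and 22.9 CPM in shZMYND8, and 14.8 and 17.4 CPM in shJARID1D. Its knockdown libraries all lay well below control. It fell by 0.87 ± 0.16 (SE; edgeR adjusted p = 0.00635) in shZMYND8 and by 1.19 ± 0.16 (0.00784) in shJARID1D. SLC4A7 (NBCn1), an electroneutral sodium-bicarbonate cotransporter, stood at 103 and 98.3 CPM in shLuciferase, 56.8 and 71.4 CPM in shZMYND8, and 61.9 and 72.3 CPM in shJARID1D. It fell by 0.65 ± 0.14 (SE; edgeR adjusted p = 0.0125) and by 0.59 ± 0.14 (0.0424). SLC4A5 (NBCe2), the electrogenic relative of SLC4A4, stood at 28.7 and 25.3 CPM in shLuciferase, 21.1 and 22.5 CPM in shZMYND8, and 14.4 and 16.8 CPM in shJARID1D. It fell by 0.79 ± 0.14 in shJARID1D (SE; edgeR adjusted p = 0.0168), while its −0.31 ± 0.14 in shZMYND8 did not pass (0.160). The chloride-bicarbonate exchanger SLC4A2 had values of −0.49 (edgeR adjusted p = 0.0540) and −0.34 (0.213). SLC4A11 went the other way in shZMYND8, at 0.59 ± 0.25 (SE; edgeR unadjusted p = 0.0372, adjusted p = 0.130), which did not pass. In shJARID1D it had −0.22 ± 0.26 (SE).

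Leaving out a knockdown library left a single library in its group, and calls over all genes fell in such fits. The number of calls in the SLC4 group likewise moved with single libraries. Without shZMYND8 replicate 1 none of its 6 tested genes passed in shZMYND8 (edgeR adjusted p = 0.0800 for SLC4A8 and 0.145 for SLC4A7). Without shJARID1D replicate 1 or 2 none of 7 passed in shJARID1D (0.0946 and 0.0529 for SLC4A8, 0.303 and 0.120 for SLC4A7, 0.165 and 0.0755 for SLC4A5). The SLC4A7 call in shJARID1D was also lost without either shZMYND8 library (0.0586 and 0.0630). Leaving out shLuciferase replicate 1 gave 3 lower genes in shZMYND8 and 4 in shJARID1D. All the named values kept their sign. As each library was left out, SLC4A8 ranged from −1.08 to −0.69 in shZMYND8 and from −1.31 to −1.07 in shJARID1D. SLC4A7 ranged from −0.83 to −0.50 and from −0.70 to −0.48 in the same order, and SLC4A5 from −0.909 to −0.685 in shJARID1D. SLC4A4 itself ranged from −1.30 to −1.01 in shZMYND8 and from −1.22 to −0.93 in shJARID1D as each library was left out.

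**Figure D3:**
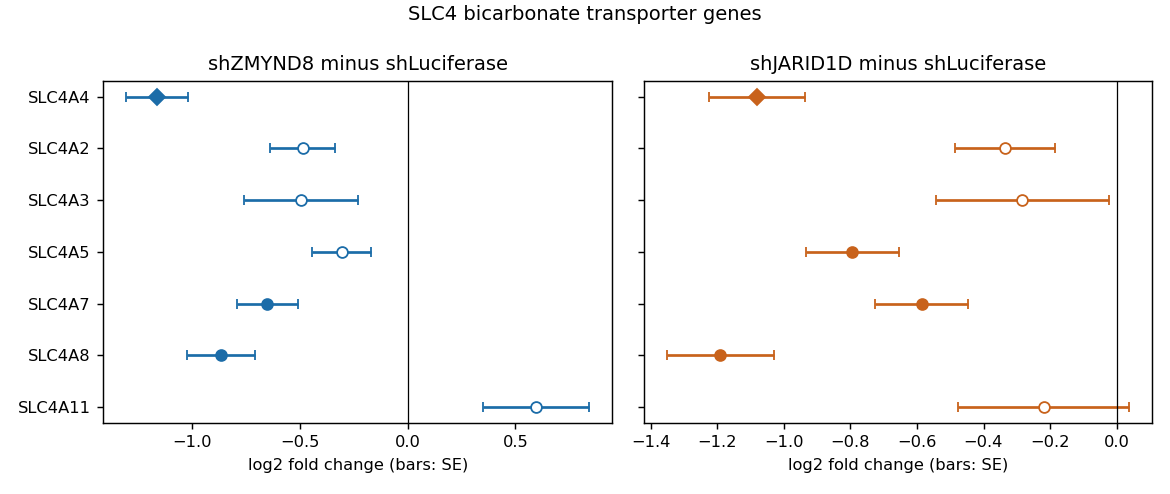
Log2 fold change against shLuciferase (horizontal axis, bars SE) of SLC4A4 (diamond, chosen for its fall) and the 6 other tested SLC4 genes, for shZMYND8 (left) and shJARID1D (right); filled circles passed an edgeR adjusted p under 0.05. SLC4A8 and SLC4A7 passed as lower in both panels, and SLC4A5 in the shJARID1D panel.

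In the other families of acid-base transport, the median log2 fold change lay between −0.05 and 0.52. Over all genes 8.89% were higher in shZMYND8 and 2.96% in shJARID1D. Of 10 SLC26 anion exchangers 6 were tested (medians 0.52 and −0.05), 2 were higher in shZMYND8 and none passed in shJARID1D, where edgeR gave 0 with an unadjusted p under 0.05 and DESeq2 called 0. SLC26A2, a sulfate transporter, stood at 93.2 and 90.4 CPM in shLuciferase, 323 and 407 CPM in shZMYND8, and 105 and 115 CPM in shJARID1D, and rose by 1.99 ± 0.14 in shZMYND8 (SE; edgeR adjusted p = 0.000262). SLC26A11 rose by 0.69 ± 0.13 there (edgeR adjusted p = 0.00696, and 0.0760 without shZMYND8 replicate 1). Of 15 carbonic anhydrase genes 6 were tested (medians 0.12 and 0.39), and in each knockdown 1 was higher and none lower. CA12, a membrane form, stood at 8.26 and 7.20 CPM in shLuciferase, 17.4 and 16.2 CPM in shZMYND8, and 8.66 and 7.42 CPM in shJARID1D, and rose by 1.12 ± 0.16 in shZMYND8 (SE; edgeR adjusted p = 0.00222). CA11, which lacks the catalytic activity of the family, stood at 4.64 and 3.9 CPM in shLuciferase, 3.94 and 3.22 CPM in shZMYND8, and 15.8 and 11.7 CPM in shJARID1D. It rose by 1.69 ± 0.22 in shJARID1D (SE; edgeR adjusted p = 0.00758, and 0.0662 without shJARID1D replicate 1).

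Of 9 sodium-proton exchangers 8 were tested (medians 0.21 and −0.01), and in each knockdown 1 was higher and 1 lower. Over all genes 16.2% passed in either direction in shZMYND8 and 5.75% in shJARID1D. SLC9A2 (NHE2), a plasma membrane exchanger of epithelia, stood at 14.3 and 14.9 CPM in shLuciferase, 8.35 and 10.1 CPM in shZMYND8, and 7.71 and 8.49 CPM in shJARID1D. It fell by 0.66 ± 0.16 (SE; edgeR adjusted p = 0.0225) and by 0.85 ± 0.16 (0.0221), calls lost without either library of the knockdown concerned (0.198 and 0.0623, then 0.172 and 0.0952). SLC9A9 (NHE9), an endosomal exchanger, rose by 1.04 ± 0.31 (SE; edgeR adjusted p = 0.0449) and by 1.77 ± 0.30 (0.0156). The first call was lost without any 1 shLuciferase or shZMYND8 library (up to 0.284), and the second without either shJARID1D library (0.127 and 0.0529). Of 9 genes for regulators and electrical partners of NBCe1 8 were tested (medians 0.12 and 0.08), and WNK1, a kinase of ion transport, was higher in shZMYND8 by 0.56 ± 0.12 (SE; edgeR adjusted p = 0.0136, and 0.0779 and 0.117 without either shZMYND8 library). None of the 8 passed in shJARID1D, where edgeR gave 1 with an unadjusted p under 0.05 and DESeq2 called 0.

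A short list of genes linked to C12orf75 (OCC-1) held ELAVL1 (HuR), an RNA-binding protein, and BTRC, a ubiquitin ligase subunit. RNA levels do not test any such link. Over all genes 8.89% were higher and 7.34% lower in shZMYND8, and 2 genes are too few to read as a set. In shZMYND8, ELAVL1 stood at 83.0 and 83.7 CPM against 119 and 125 CPM in control and fell by 0.55 ± 0.11 (SE; edgeR adjusted p = 0.0110). BTRC stood at 53.6 and 56.6 CPM against 35.9 and 32.4 CPM and rose by 0.69 ± 0.13 (edgeR adjusted p = 0.00630). Neither passed in shJARID1D, at −0.12 and 0.17, with 0 unadjusted p under 0.05 in edgeR and 0 calls by DESeq2. Both calls were lost without either shZMYND8 library, at 0.103 and 0.0865 for ELAVL1 and 0.0515 and 0.0624 for BTRC.

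The genes beside them on the chromosome were read from the same fit. Neighbours were the nearest genes in RefSeq order that the count table names, up to 3 on each side of each gene. Annotated genes absent from it were skipped, and distances were not measured. Of 18 such neighbours 14 were tested. In shZMYND8 1 was higher, 1 lower and 12 did not pass, and in shJARID1D 1 was lower and 13 did not pass. Over all genes 16.2% passed in shZMYND8 and 5.75% in shJARID1D, so these counts are not read as a result about the neighbours. None of the 4 tested neighbours of BDH1 on chromosome 3 passed in edgeR, DLG1 and RUBCN among them, although 2 had an unadjusted p under 0.05 in shZMYND8 and 1 in shJARID1D. Next to SLC4A4 on chromosome 4, MOB1B, a Hippo pathway cofactor, was lower in shZMYND8, at 33.7 and 34.7 CPM against 55.0 and 44.9 CPM (log2 fold change −0.55 ± 0.13, SE; edgeR adjusted p = 0.0205, and 0.154 and 0.115 without either shZMYND8 library). The neighbours DCK and GRSF1 had values of −0.43 and −0.36 in shZMYND8 that did not pass (edgeR unadjusted p = 0.0139 and 0.0124, adjusted p = 0.0705 and 0.0661). ADAMTS3, the other tested neighbour, had 0.70 there (edgeR adjusted p = 0.430), on 5 to 12 fragments per library. Beside C12orf75 on chromosome 12, ALDH1L2, a mitochondrial folate enzyme, was higher in shZMYND8 by 0.71 ± 0.20 (SE; edgeR adjusted p = 0.0370). That call was lost without shLuciferase replicate 2 (0.0789), shZMYND8 replicate 2 (0.303) or shJARID1D replicate 2 (0.0537). CKAP4, an endoplasmic reticulum membrane protein, was lower in shJARID1D (log2 fold change −0.55 ± 0.11, SE; edgeR adjusted p = 0.0263), a call lost without any 1 of the 4 knockdown libraries (0.0622 to 0.226). RefSeq lists no gene that overlaps BDH1 or C12orf75. It lists 4 entries overlapping SLC4A4, none of them named in the count table. The sources used here do not say whether counting used strand, so reads from such entries cannot be told apart from SLC4A4.

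**Figure D4:**
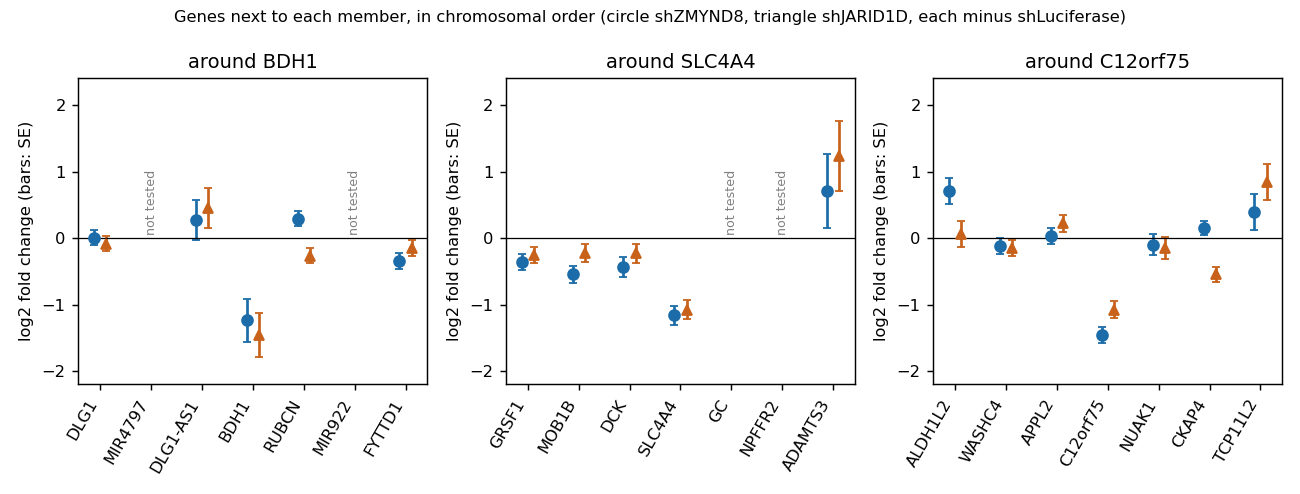
Log2 fold change against shLuciferase (vertical axis, bars SE) of each gene and its neighbours in chromosomal order, circles for shZMYND8 and triangles for shJARID1D. BDH1, SLC4A4 and C12orf75 are the lowest points of their panels in both knockdowns.

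Over the 6 libraries the profiles of SLC4A4 and C12orf75 lay close together and that of BDH1 further off, though all 3 genes were chosen for falling in these same libraries. Likeness was measured as the root mean square difference of log2 CPM after each gene's mean was removed, over 11476 genes compared with SLC4A4 or C12orf75 and 11477 with BDH1. The distance between SLC4A4 and C12orf75 was 0.179 log2 units (r = 0.962 over 6 libraries in 3 groups, a description), which made SLC4A4 number 2 in closeness to C12orf75 and C12orf75 number 8 for SLC4A4. BDH1 was 0.431 from SLC4A4 (r = 0.780) and 0.435 from C12orf75 (r = 0.785), number 1401 in closeness to SLC4A4 and 526 to C12orf75. The genes compared had a single gene name and averaged 5 CPM or more, whereas BDH1 averaged 3.68 CPM. With 39 to 182 fragments per library, counting error adds to the distances of BDH1, and its share in them was not tested. The closest gene to both SLC4A4 and C12orf75 was ALDH7A1, at 0.125 and 0.177. It stood at 57.4 and 55.6 CPM in shLuciferase, 26.99 and 25.5 CPM in shZMYND8, and 28.0 and 27.8 CPM in shJARID1D. For SLC4A4 the next were ADAP2 at 0.132, ARHGAP29 at 0.143 and MYBL1 at 0.156, and for C12orf75, after SLC4A4, ADAP2 at 0.182 and AIF1L at 0.194. For BDH1 they were LY6K at 0.268, GAL at 0.268, PHLPP2 at 0.291 and ESRP2 at 0.292. LY6K, a surface antigen of the Ly6 family, stood at 164.7 and 247.1 CPM in shLuciferase, 125.4 and 128.6 CPM in shZMYND8, and 94.1 and 122.7 CPM in shJARID1D. Like BDH1 it was higher in control replicate 2 than in replicate 1 and lowest in shJARID1D replicate 1.

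**Figure D5:**
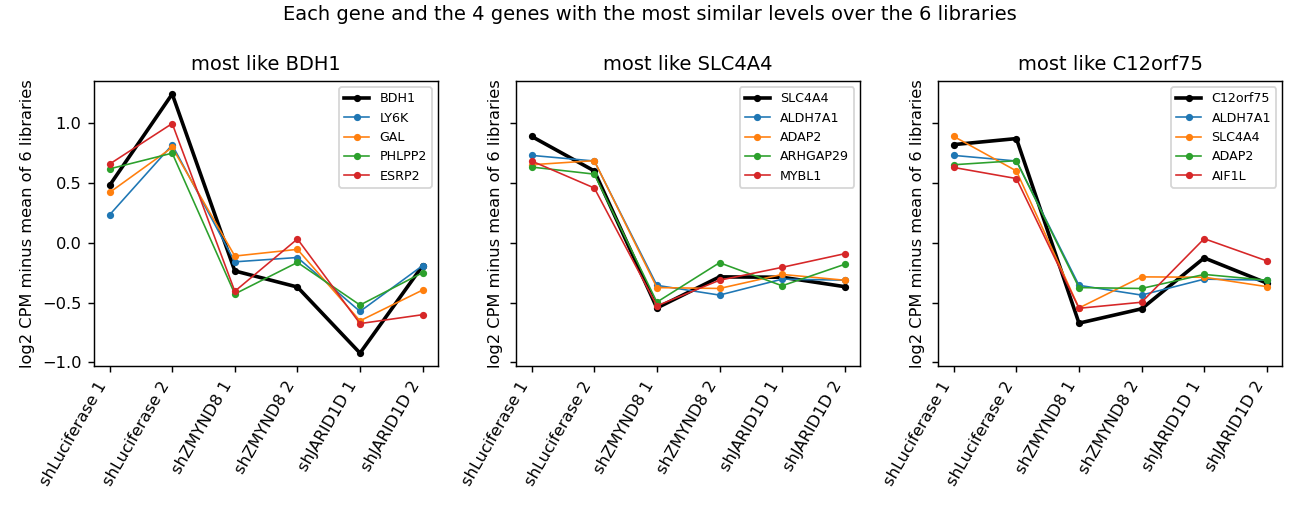
Log2 CPM minus each gene's mean over the 6 libraries (vertical axis) for BDH1, SLC4A4 and C12orf75 (black) and the 4 genes most like each. In each panel the black line lies higher in both shLuciferase libraries than in any knockdown library, and the BDH1 line varies most within groups.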

How the data were processed

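RNA from 6 DU145 libraries was analysed. Per the submitters' processing notes, TopHat2 2.0.12, Bowtie 1.1.2, Cuffdiff and edgeR 3.12.0 were used on hg19, with no role or order given. The authors deposited 1 table of expected counts (estimated counts) per gene, in the layout of Cuffdiff count tracking per the file headers, with values scaled between libraries. Columns named for Rac7 were read as shZMYND8, since the antibody labels equate both names. The annotation used and strandedness were not given in the sources used here. A fragment was worth 0.881 to 1.16 units, recovered from steps in low values, and 84.0% to 84.9% of values below 1000 fragments were then within 0.05 of a whole number. Deposited totals were 22925611 to 25001300 per library, and 3 fragments equal 0.112 to 0.151 CPM.

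Counts were rounded, 60 of 28503 genes marked as not quantified were left out, and edgeR 4.0.16 (R 4.3.3; TMM, filterByExpr, quasi-likelihood F test, all 6 libraries in 1 fit, Benjamini-Hochberg over 15867 genes, threshold 0.05) was tested on simulated data and then run. CPM was computed on the TMM-adjusted totals, and log2 CPM with a prior count of 2. Within each group the replicates differed beyond sampling noise (chi-square per gene 34.5 in shLuciferase, 15.5 in shZMYND8 and 11.5 in shJARID1D). The 3 genes and all 15 gene lists were chosen with earlier results of these data known, and some list genes are not reported here. Named genes are those lists' calls in either knockdown (at most 4 per list and comparison), the nearest relatives, neighbours, 4 most similar genes and those next in rank. Alternatives covered normalization, filters, DESeq2 1.42.0, limma voom 3.58.1, the libraries fitted, the replicate block, the deposited scaling and left-out libraries, and leaving out libraries for list counts was added after the data were seen.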

Additional observations from a re-analysis of the deposited data

How the results depend on the processing

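In both knockdowns BDH1, SLC4A4 and C12orf75 stayed below control under all 17 alternatives. That outcome was all but fixed, since these genes were chosen for their falls and every knockdown library lay below both controls. It therefore adds no support to the falls. The direct difference (shZMYND8 minus shJARID1D) of C12orf75 crossed the threshold under 5 alternatives, which were the replicate block (below), library totals only (−0.439, edgeR adjusted p = 0.0482), only the groups compared (−0.384, 0.0300) and without shLuciferase replicate 1 or 2 (−0.385 and −0.386, 0.0284 and 0.0289), and ranged from −0.493 to −0.270 with a library left out (up to 0.394). That of BDH1 ranged from −0.108 (without shJARID1D replicate 1) to 0.638, and that of SLC4A4 from −0.220 to 0.041 (without shZMYND8 replicate 1). BDH2 in shZMYND8 was −0.243 without shLuciferase replicate 2 and 0.87 without its replicate 1. The cause was not tested.

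Numbers of changed genes moved more. With a library left out, 642 (shZMYND8 replicate 1) to 3222 genes changed in shZMYND8 (1005 without its replicate 2), 16 (shJARID1D replicate 1) to 2145 (shLuciferase replicate 1) in shJARID1D, and 551 (shZMYND8 replicate 2) to 4191 (shLuciferase replicate 1) between knockdowns. At 16, 2207 genes had an unadjusted p under 0.05. Without a filter, 204 changed in shJARID1D and 1560 between knockdowns. With only the groups compared, 449 and 4252 did. With library totals only, the split of higher and lower genes was 709 and 294 in shJARID1D (469 and 443 with TMM) and 1140 and 1392 between knockdowns (1376 and 1114).

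Same-numbered libraries deviated together only weakly (r = 0.0925, 0.170 and 0.0969 across genes), so the numbers were not taken to pair the libraries, and whether a number marks a shared day or batch was not tested. With the replicate block 2073 genes changed in shJARID1D and 3785 between knockdowns, and C12orf75 differed by −0.383 between them (edgeR adjusted p = 0.0394). All 35 named calls kept their sign, and 6 stayed past the threshold, in each case over the alternatives that tested the gene (SLC16A6 was not tested at a mean count of at least 50). Depth limits BDH1, at 39 fragments in its lowest library.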
